A study of Mus musculus with 20 samples.

Results

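Genes of cholesterol synthesis and its regulator SREBP2 were followed across heart ventricles of mice that had lost Acsl1 and of their controls, with and without rapamycin. The set was chosen by gene symbol and holds 8 genes: Srebf2, Hmgcs1, Sqle, Idi1, Insig1, Cyp51, Lss and Mvd. Of these, 7 were matched among the 21705 genes of the expression table, all 7 passed the filter on low values, and Hmgcs1 was not analysed here. None of the 7 genes passed the adjusted threshold in any of 7 comparisons. The lowest p-value in a comparison of 2 groups was that of Cyp51 for rapamycin against vehicle in knockout hearts. There its rapamycin mean was 72.8% of its vehicle mean. The 5 and 5 libraries did not overlap, which held for 1.85% of all tested genes.

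SREBP2, the product of Srebf2, is a membrane-bound transcription factor that is held in the endoplasmic reticulum by SCAP and INSIG proteins while sterols are plentiful. When sterols run low, it is cut in the Golgi and its free end enters the nucleus, where it raises the transcription of the enzymes that turn acetyl-CoA into cholesterol and of Srebf2 and Insig1 themselves. The kinase complex mTORC1, which rapamycin inhibits, is known in other cells to favour this activation, and the heart makes cholesterol at a low rate.

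Polyadenylated RNA was sequenced from the ventricles of male C57Bl/J6 mice that were 6 to 8 weeks old when given tamoxifen at 75 mg/kg on 4 days. Knockout mice (Acsl1H-/-) lost the gene in the heart. Their controls were littermates with the floxed gene intact (Acsl1flox/flox), which received tamoxifen too. Mice of both genotypes were injected daily for 2 weeks with rapamycin at 1 mg/kg or with its vehicle of saline, ethanol, Tween and PEG, and hearts were taken 2 weeks after tamoxifen. This gave 4 groups of 5 libraries, which the design text calls biological replicates, sequenced in 4 pools. The promoter of the Cre recombinase is not given in the labels, and an effect of Cre itself cannot be told apart from the loss of Acsl1.

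The libraries had an implied depth of 11.5 to 21.1 M reads, and values are upper-quartile-normalized RSEM estimates with an upper quartile near 1000. Acsl1, the acyl-CoA synthetase that activates long-chain fatty acids, ranged from 6373 to 16661 in the 10 control libraries and from 631 to 1950 in the 10 knockout libraries, in the direction of the labels. Cardiomyocyte markers were abundant in each of the 4 groups, and none of the 8 was at 0. Control vehicle libraries 1 and 3 stood apart from the other 18 on the first principal component. In the same 2 libraries, long transcripts were low relative to short ones, with a long-minus-short score of -1.04 and -1.17 on the log2 scale against -0.46 to 0.58 elsewhere. The fitted changes that use the control vehicle group were therefore also computed without them. In whole ventricle, fewer cells of a type and less RNA per cell cannot be told apart.

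Promoter sequences are shown for the regulator and for the pair of genes with the lowest unadjusted p-values under rapamycin, because SREBP2 and its partner NF-Y bind such regions. Each is the 250 bases before the start of the gene, 5′ to 3′ on the gene's strand, from RefSeq, build GRCm38.p6. Cyp51 lies on the minus strand at chr5:4104698-4104947, Insig1 on the plus strand at chr5:28071162-28071411, and Srebf2 on the plus strand at chr15:82147019-82147268. Capitals mark the CCAAT box (CCAAT, or ATTGG on the opposite strand) and a loose form of the sterol regulatory element (TCACNNCA, or its reverse complement).
Cyp51: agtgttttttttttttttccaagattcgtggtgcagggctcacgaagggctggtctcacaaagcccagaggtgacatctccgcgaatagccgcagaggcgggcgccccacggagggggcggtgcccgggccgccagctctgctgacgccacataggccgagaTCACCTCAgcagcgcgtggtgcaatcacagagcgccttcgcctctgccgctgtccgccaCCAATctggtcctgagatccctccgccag
Insig1: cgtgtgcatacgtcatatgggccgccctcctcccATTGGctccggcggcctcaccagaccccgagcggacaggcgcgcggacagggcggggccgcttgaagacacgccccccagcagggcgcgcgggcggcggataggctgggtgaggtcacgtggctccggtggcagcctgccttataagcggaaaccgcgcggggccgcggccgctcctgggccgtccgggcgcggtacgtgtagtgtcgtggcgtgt
Srebf2: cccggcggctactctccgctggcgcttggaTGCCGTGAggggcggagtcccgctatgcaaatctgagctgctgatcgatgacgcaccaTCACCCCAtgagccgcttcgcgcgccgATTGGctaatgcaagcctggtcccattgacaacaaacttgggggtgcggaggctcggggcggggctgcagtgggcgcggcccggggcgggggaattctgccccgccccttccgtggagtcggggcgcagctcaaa

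Of the 7 genes, 6 had a promoter window in the RefSeq table, taken from 250 bases before to 50 bases after the start, and Sqle was not among them. A CCAAT box on either strand was in 6 of these 6 windows, against 37.41% of all 32851 windows of that length. The stricter sterol element TCACNCCAC was in none of the 6 and in 1.24% of all windows. The loose form, chosen after the windows were read, was in 2 of the 6 and in 13.84% of all. Cyp51 held it as TCACCTCA beginning 88 bases before the start, and Srebf2 held it as TCACCCCA at 162 bases and, on the opposite strand, as TGCCGTGA at 220 bases. None of these elements overlapped a CCAAT box. A match describes letters in a window and is not evidence of binding in these hearts.

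The levels of the genes, compared per kilobase of their longest coding transcript, differed widely. Insig1, whose protein retains the SCAP and SREBP2 complex, was highest with a median of 257 normalized units per kilobase over 20 libraries. Srebf2 followed with 185. The enzymes were lower in level per kilobase, with medians of 93.9 for Cyp51, 74.6 for Mvd, 55.4 for Idi1, 12.2 for Sqle and 5.03 for Lss. Each neighbouring pair in this order overlapped in range except Idi1 and Sqle. Within single libraries the order held in 19 of 20 for Insig1 over Srebf2, in 20 for Srebf2 over Cyp51, in 15 for Cyp51 over Mvd, in 17 for Mvd over Idi1, and in all 20 for Idi1 over Sqle and for Sqle over Lss.

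**Figure D1:**
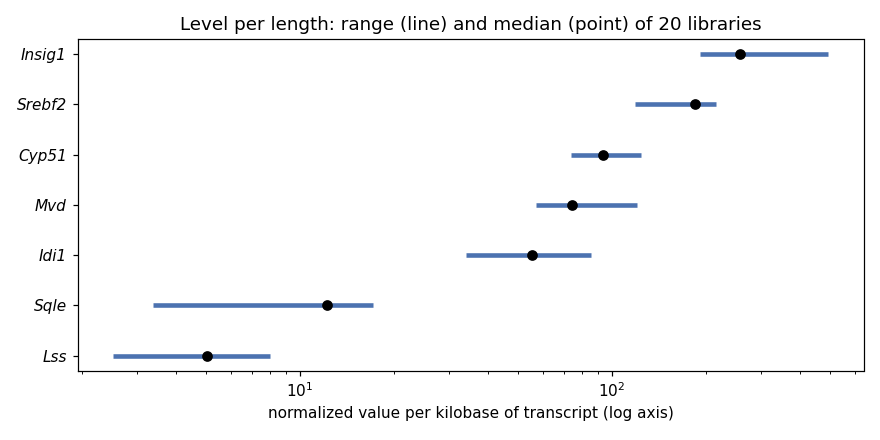
Normalized value per kilobase of the longest coding transcript on a log axis, for 7 genes, with a line from the lowest to the highest of 20 libraries and a point at the median. Insig1 and Srebf2 lie at the top, and Sqle and Lss lie below the ranges of the other 5.

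A median library held the equivalent of 581 reads for Srebf2, 441 for Insig1, 235 for Cyp51, 110 for Idi1 and 82.5 for Mvd. It held only 23.5 for Sqle and 13.5 for Lss. Counting error alone at those medians is 20.6% for Sqle and 27.2% for Lss, beside coefficients of variation over 20 libraries of 32.6% and 30.2%. For Cyp51 the counting error is 6.52% and the coefficient of variation 14.4%. Counting error was thus largest for Lss and Sqle, the pair with the fewest reads.

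**Figure D2:**
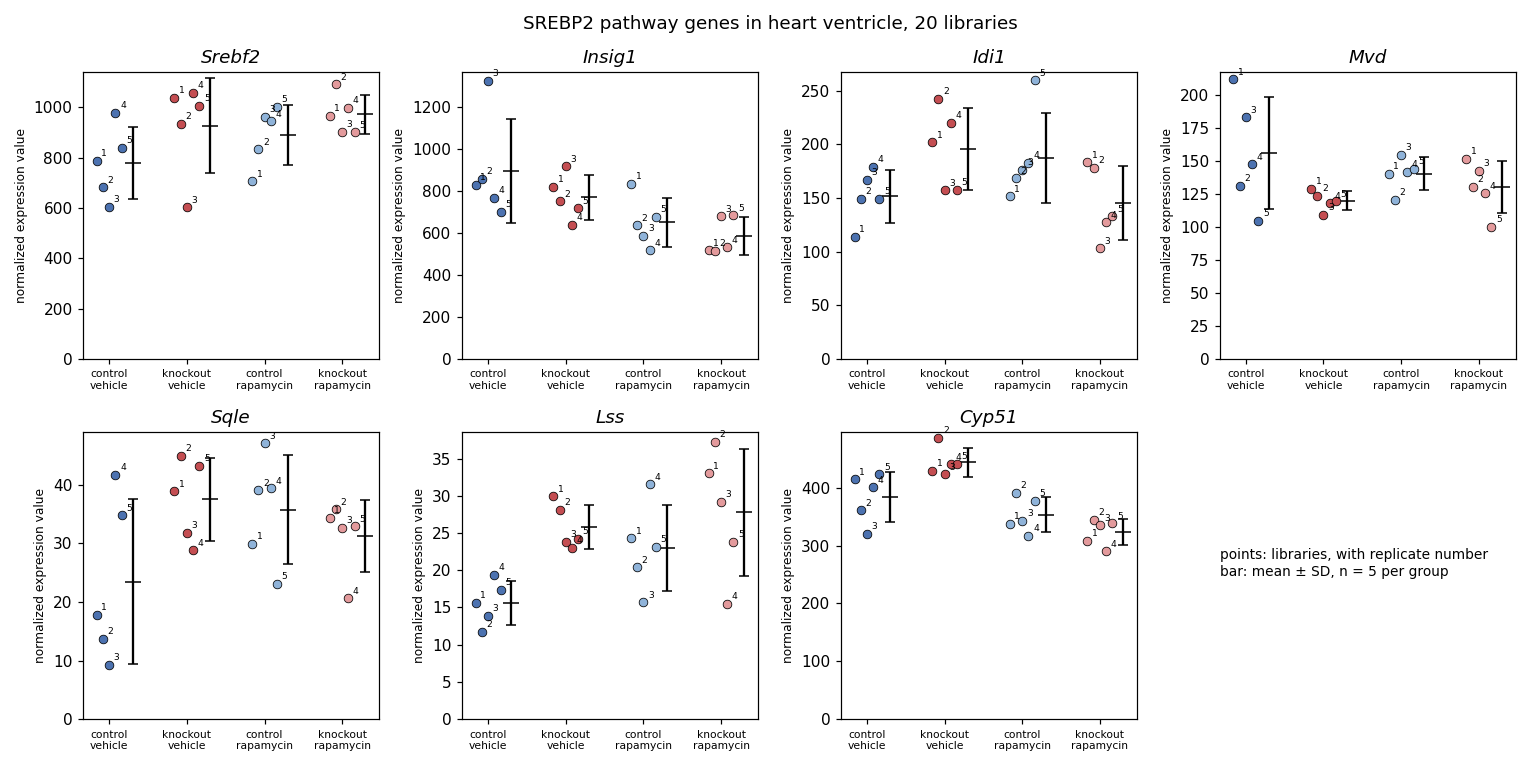
Normalized expression value of 7 genes in each of 20 libraries, by group, with replicate numbers beside the points and a bar for the mean ± SD (n = 5). Cyp51 in the knockout rapamycin group (290 to 344) lies below the knockout vehicle group (423 to 487). Lss in the knockout vehicle group (23.0 to 29.9) lies above the control vehicle group (11.8 to 19.4). Of all tested genes, 1.85% and 2.32% did not overlap in these 2 comparisons.

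The regulator is described first. Srebf2 in vehicle-treated hearts was 788, 683, 606, 978 and 839 in control libraries 1 to 5 and 1037, 934, 602, 1059 and 1005 in knockout libraries 1 to 5. Under rapamycin it was 707, 833, 962, 944 and 1002 in controls and 966, 1092, 904, 998 and 900.0 in knockouts. The 4 groups overlapped, and the lowest values were in knockout vehicle 3 and control vehicle 3. The mean was 779 ± 144 in control vehicle hearts and 928 ± 188 in knockout vehicle hearts (SD, n = 5 each), a fitted log2 change of 0.24 (SE 0.15, limma adjusted p = 0.2615). It was 0.39 without knockout vehicle 3 and 0.16 without control vehicle 3. The change with rapamycin was 0.20 in controls (95% interval -0.12 to 0.52) and 0.09 in knockouts (-0.23 to 0.41) on the same scale.

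Insig1, a target of SREBP2 that also restrains it, was lower under rapamycin in both genotypes, without passing the threshold. In control hearts it was 830, 857, 1327, 769 and 702 with vehicle and 834, 636, 588, 518 and 676 with rapamycin. In knockout hearts it was 820, 752, 918, 640 and 718 with vehicle and 518, 515, 680, 531 and 685 with rapamycin. Rapamycin libraries made up most of the low values, but the groups overlapped in both genotypes. The fitted log2 change was -0.44 (SE 0.16, limma adjusted p = 0.328) in controls and -0.40 (SE 0.16, limma adjusted p = 0.7342) in knockouts. Averaged over genotypes it was -0.42 (95% interval -0.66 to -0.18, limma adjusted p = 0.1846), which ranked Insig1 109th by p among 13548 tested genes. It was negative in each of the 4 pools (-0.30, -0.56, -0.71 and -0.07), values that divide the same libraries and are not separate support. Control vehicle 3 held the highest value, and without control vehicle 1 and 3 the change in controls was -0.27 and the averaged change -0.33 (limma adjusted p = 0.3899). For genotype, the Insig1 log2 change was -0.19 (SE 0.16) under vehicle and -0.14 (SE 0.16) under rapamycin. With 1 library left out, it ran from -0.27 to -0.04 (without control vehicle 3) and from -0.22 to -0.05 (without control rapamycin 1).

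The early enzymes of the pathway come next. Idi1 isomerizes isopentenyl diphosphate, the building block of isoprenoids. Its value with vehicle was 114, 149, 167, 179 and 149 in control hearts and 202, 243, 157, 220 and 157 in knockout hearts. With rapamycin it was 151, 168, 176, 183 and 260 in control hearts and 183, 178, 103, 127 and 133 in knockout hearts. The genotypes thus lay in opposite order in the vehicle and rapamycin arms, with overlap in both. The log2 change with knockout was 0.36 under vehicle and -0.38 under rapamycin, each with an SE of 0.19. The interaction, which is the difference between these, was -0.74 (SE 0.26, limma adjusted p = 0.5232). It was negative in each of the 4 pools, from -1.55 to -0.27. Each pool held only 5 libraries over the 4 groups. The pool values divide the same 20 libraries and are not separate support. No gene of 13548 passed the threshold for the interaction (0%), while 8.30% had an unadjusted limma p under 0.05.

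Mvd decarboxylates mevalonate diphosphate to make the unit that Idi1 isomerizes. With vehicle it was 212, 131, 183, 148 and 104 in control hearts and 129, 124, 109, 118 and 119 in knockout hearts. Mice on rapamycin had values of 140, 121, 155, 142 and 144 in controls and 152, 131, 143, 125 and 100 in knockouts. The high values were those of control vehicle 1 and 3, the libraries that stood apart. The log2 change with knockout under vehicle was -0.33 (SE 0.16, limma adjusted p = 0.1588), and -0.08 without these libraries. Among the 7 genes, Mvd also tracked the long-minus-short score most closely across libraries (r = -0.59 on deviations from group means, n = 20, a description, and -0.15 in the 18 libraries without control vehicle 1 and 3), and its transcript is the shortest of the 7 at 1756 bases.

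Sqle, the monooxygenase that makes squalene epoxide, had the widest spread. With vehicle it was 17.9, 13.7, 9.28, 41.7 and 34.8 in control hearts and 38.9, 45.0, 31.8, 28.8 and 43.3 in knockout hearts. With rapamycin it was 29.9, 39.1, 47.1, 39.4 and 23.1 in controls and 34.4, 35.9, 32.6, 20.6 and 33.0 in knockouts. Control vehicle 1, 2 and 3 held the lowest values of the 20, while control vehicle 4 and 5 lay among the other groups. The fitted log2 change with knockout under vehicle was 0.84 (95% interval 0.16 to 1.51, limma adjusted p = 0.1106), and that with rapamycin in controls was 0.75 (limma adjusted p = 0.3298). Both comparisons use the same control vehicle libraries. Without control vehicle 1 and 3 the values were 0.43 (limma adjusted p = 0.8217) and 0.34 (limma adjusted p = 0.9998). Over pools the knockout effect under vehicle ran from -0.27 to 1.89.

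Lss, lanosterol synthase, closes the squalene epoxide chain into the first sterol. With vehicle it was 15.6, 11.8, 13.9, 19.4 and 17.4 in control hearts and 29.9, 28.1, 23.9, 23.0 and 24.2 in knockout hearts, so the groups did not overlap. Rapamycin-treated hearts had 24.3, 20.4, 15.7, 31.5 and 23.1 in controls and 33.1, 37.3, 29.2, 15.5 and 23.9 in knockouts, and these overlapped. Under vehicle the mean was 15.6 ± 3.0 in control and 25.8 ± 3.0 in knockout hearts (SD, n = 5 each), a fitted log2 change of 0.70 (SE 0.24, limma adjusted p = 0.102). Of all 13548 genes, 2.32% did not overlap between these groups, and Lss was the single one of the 7. Within the 4 pools the change was 0.38 to 1.19, with a sign fixed by the lack of overlap. It was 0.66 without control vehicle 1 and 3. Under rapamycin it was 0.24 (95% interval -0.27 to 0.74). The interaction was -0.47 (SE 0.34, limma adjusted p = 0.5499), so the effects were not shown to differ between drug arms.

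Cyp51 encodes the lanosterol demethylase, which acts on the product of Lss. In knockout hearts it was 430, 487, 423, 441 and 441 with vehicle and 309, 344, 335, 290 and 339 with rapamycin. In control hearts it was 415, 361, 320, 401 and 424 with vehicle and 338, 391, 343, 317 and 377 with rapamycin. The highest knockout value under rapamycin lay well below the lowest with vehicle, whereas the control groups overlapped. The knockout mean was 444 ± 24.8 with vehicle and 323 ± 23.0 with rapamycin (SD, n = 5 each), so the rapamycin mean was 72.8% of the vehicle mean. The fitted log2 change was -0.46 (95% interval -0.66 to -0.25, limma adjusted p = 0.1515), which ranked Cyp51 13th by p among 13548 genes. In this comparison 1.85% of all genes did not overlap between groups. Within the 4 pools the change was -0.32, -0.66, -0.37 and -0.49. Since the groups did not overlap, its sign in each pool was fixed and adds nothing to the comparison. With the long-minus-short score as a covariate it was -0.45 and passed the threshold (limma adjusted p = 0.01146), in a fit that called 227 genes in place of 1. Over the other alternatives the adjusted p ran from 0.08024 to 0.3416, and from 0.1277 to 0.4672 when 1 library was left out.

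In control hearts the Cyp51 log2 change with rapamycin was -0.12 (SE 0.10, limma adjusted p = 0.5007), and -0.23 after quantile normalization (limma adjusted p = 0.3658). The difference between genotypes in the response was -0.34 (SE 0.14, limma adjusted p = 0.5232), or -0.20 after quantile normalization, so a response particular to knockout hearts was not shown. Averaged over genotypes the change was -0.29 (95% interval -0.43 to -0.14, limma adjusted p = 0.118), rank 57 by p. It passed the threshold with the long-minus-short covariate (-0.30, limma adjusted p = 0.01486) and after quantile normalization (-0.33, limma adjusted p = 0.03004), in fits that called 332 and 25 genes in place of 17. When 1 library was left out, the adjusted p ran from 0.07884 to 0.2501.

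**Figure D3:**
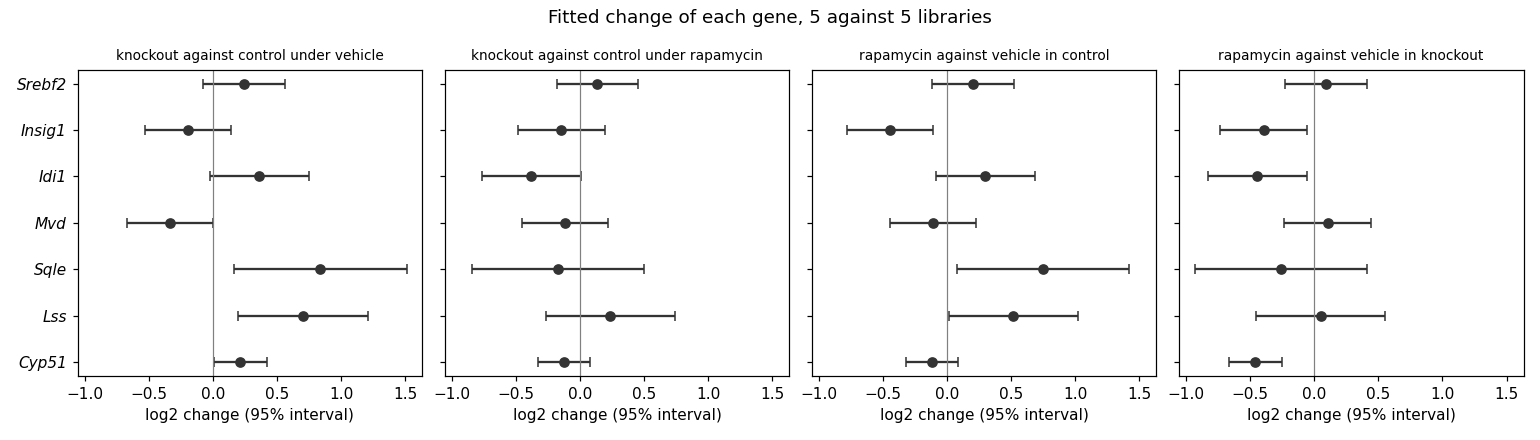
Fitted log2 change and 95% interval of 7 genes in 4 comparisons of 5 against 5 libraries. The interval for Cyp51 with rapamycin in knockout hearts (-0.66 to -0.25) lies below 0, and the intervals for Sqle and Lss are the widest.

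Taking the 7 genes by comparison, the counts stood as follows. Under vehicle, 0 of 7 passed the threshold for knockout against control, where 0.244% of all tested genes did. Their median log2 change was 0.24 against 0.07 over all genes, and 5 were positive and 2 negative, where 43.5% of all genes were negative. An unadjusted limma p under 0.05 was reached by 3 of 7 (Sqle, Lss and Cyp51) and by 31.8% of all genes. Fibroblast markers had 8 of 8 positive values in this comparison, none called, and a median log2 change of 0.84. Their summed value was 23214 to 31098 in control vehicle and 28563 to 61187 in knockout vehicle hearts, and none of the 8 was at 0 in a whole group. Atrial markers had 4 of 4 tested values positive, none called, and a median log2 change of 4.32. Their summed value was 1358 to 6056 in control vehicle and 4141 to 63604 in knockout vehicle hearts, with none of 5 at 0 in a whole group, and the median was 4.24 without control vehicle 1 and 3. Adipocyte markers had 5 of 5 tested values positive, none called, with a median of 1.20 and summed values of 17.9 to 168 and 9.94 to 811. Endothelial markers had 6 of 6 positive, none called, with a median of 0.14, and 3 of 6 positive without control vehicle 1 and 3. Red-cell markers had 4 of 4 negative, 2 called (Hba-a2 at -1.80 and Beta-s at -2.0, limma adjusted p = 0.04043 and 0.02893) and a median log2 change of -1.73. Their summed value was 60591 to 155063 in control vehicle and 13533 to 46552 in knockout vehicle hearts. Of these 4, 0 were called without control vehicle 1 and 3, and their median was -1.32. The part of these markers in the values of the 7 genes was not tested. Without control vehicle 5 the calls were 3 of 7 (Sqle, Lss and Mvd), together with 3089 of all genes in place of 33.

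Under rapamycin, 0 of 7 passed for knockout against control, beside 0.0221% of all genes, and 0 of 7 were free of overlap, beside 0.878%. The median log2 change was -0.13 against -0.02 over all genes, and none of the 7 had an unadjusted limma p under 0.05, beside 2.97% of all. For rapamycin against vehicle in controls, none of the 7 and none of the 13548 genes passed (0%), and 0 of 7 were free of overlap, beside 1.46% of all genes. There 3 of 7 (Insig1, Sqle and Lss) and 14.9% of all genes had an unadjusted limma p under 0.05. Tested markers of fibroblasts (8 of 8, median 0.51), endothelium (6 of 6, 0.27), adipocytes (5 of 5, 1.28) and atrium (4 of 4, 2.84) were all positive there. Red-cell markers had 4 of 4 negative (-0.44), and 0 of all these were called. Of these lists, fibroblast and atrial markers kept 1 sign without control vehicle 1 and 3 (medians 0.24 and 2.74), and the other lists did not. For rapamycin in knockouts, 0 of 7 passed beside 0.00738% of all genes. There 3 of 7 (Cyp51, Insig1 and Idi1), all negative, and 5.71% of all genes had an unadjusted limma p under 0.05. The median log2 change of the 7 in that comparison was -0.26 against -0.02 over all genes. Markers of other cells also had values of 1 sign in it, with 0 called. Macrophage markers had 6 of 6 negative (median -0.32, summed values of 4956 to 7423 with vehicle and 3787 to 5953 with rapamycin), and atrial markers had 4 of 4 tested negative (-1.13, 4141 to 63604 and 8105 to 58970). Red-cell markers had 4 of 4 positive (0.77, 13533 to 46552 and 29692 to 104570), and nerve and glia markers 6 of 6 (0.22, 207 to 379 and 211 to 446). None of these markers was at 0 in a whole knockout group. The part of cell markers in the values of the 7 genes was not tested in either rapamycin comparison.

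Averaged over drug arms, 0 of 7 passed for genotype, beside 0.443% of all genes. Lss had the lowest limma adjusted p of the 7 there (0.2134), with a log2 change of 0.47. Markers of other cells that passed in that comparison were the fibroblast genes Pdgfra (0.83) and Dcn (0.44) and the globins Hba-a2 (-1.20) and Beta-s (-1.31), with limma adjusted p-values of 0.03913 to 0.04312. Of the 8 fibroblast and 4 red-cell markers, 0 were called without control vehicle 1 and 3. With the long-minus-short covariate, Dcn (0.49, limma adjusted p = 0.03235) and Pdgfra (0.55, limma adjusted p = 0.04961) were called, and 0 of the 4 red-cell markers. That fit called 40 of all genes in place of 60. Averaged over genotypes, 0 of 7 passed for rapamycin, beside 0.125% of all genes. There Cyp51 and Insig1 had an unadjusted limma p under 0.05, as did 9.23% of all genes. For the interaction, 5 of 7 were negative, as were 58.6% of all genes, with a median of -0.34 against -0.09 over all genes. Idi1, Sqle and Cyp51 had an unadjusted limma p under 0.05 there, as did 8.30% of all genes. The simple comparisons share groups of libraries, so their values are not independent of each other.

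The other enzymes of cholesterol synthesis were set beside the 5 enzymes above. The list held 22 enzymes, of which 21 were tested. None of the 21 passed the limma threshold in any of the 7 comparisons, and between 0 (knockout under rapamycin) and 7 (knockout under vehicle, where 31.8% of all genes did) had an unadjusted p under 0.05. With knockout under vehicle, 8 were positive and 13 negative, with a median log2 change of -0.20 against 0.07 over all genes, of which 43.5% were negative. Sqle (0.84) and Lss (0.70) were the highest of the 21, and Idi1 had 0.36. The lowest was Tm7sf2, a sterol reductase, at -0.62. Steps next to each other in the pathway thus had values of opposite sign, as with Fdft1 (-0.49), which makes the squalene that Sqle oxidizes.

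**Figure D4:**
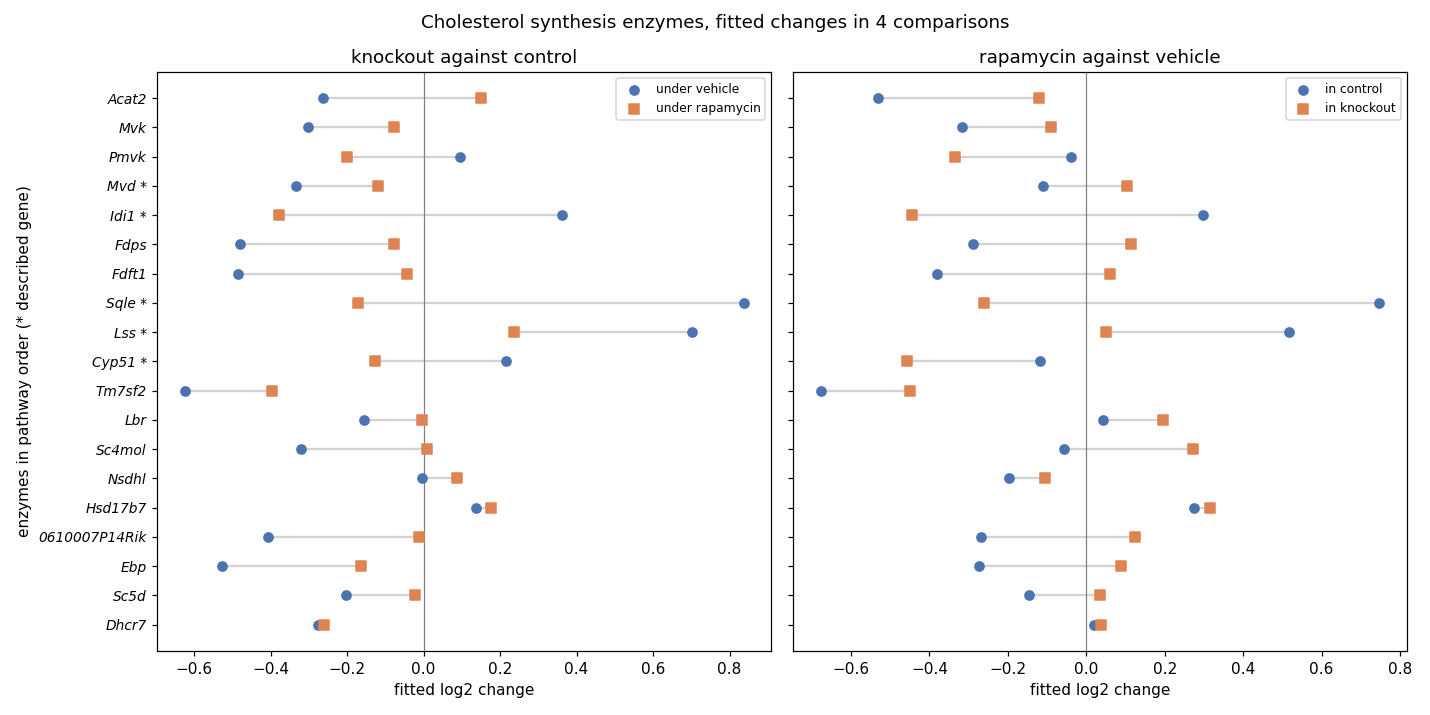
Fitted log2 change of 19 of the 21 tested cholesterol synthesis enzymes in pathway order, for knockout against control (left) and rapamycin against vehicle (right), with 1 marker per arm. In the left panel, values under vehicle spread from -0.62 to 0.84 and those under rapamycin from -0.40 to 0.24.

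The spread of the enzymes moved with transcript length. Over the 21 enzymes, the log2 change with knockout under vehicle had a Spearman correlation of 0.584 with transcript length, against 0.248 under rapamycin, as a description across genes that share libraries. The correlation was 0.527 for rapamycin in controls, 0.526 for rapamycin averaged over genotypes and -0.461 for the interaction, and -0.001 for rapamycin in knockouts. Without control vehicle 1 and 3 it was 0.277 for knockout under vehicle, 0.183 for rapamycin in controls and -0.053 for the interaction. Without control vehicle 1 and 3 the median of the 21 was -0.01 in place of -0.20, beside 0.03 over all genes. The part of transcript length in the single values was not tested beyond the fits with the score as a covariate. In those, Sqle, Lss and the other 5 genes again did not pass the threshold for genotype.

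The genes around the pathway were described by the smallest p-values outside the 7 in the comparisons averaged over the other factor. None of the genes in this account passed the threshold. Among enzymes, the log2 change with genotype was -0.26 for Fdft1 (limma adjusted p = 0.1777), -0.35 for Ebp, a sterol isomerase, and -0.51 for Tm7sf2. With rapamycin it was -0.56 for Tm7sf2, -0.33 for the thiolase Acat2 and -0.19 for the kinase Pmvk, with limma adjusted p-values of 0.4644 to 0.4935. The directions of Fdft1 and its neighbour Sqle thus differed for genotype.

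None of 12 tested genes of SREBP regulation passed, Srebf2 and Insig1 included. With the long-minus-short covariate, 1 of the 12 was called for rapamycin averaged over genotypes, in the fit that called 332 of all genes in place of 17. The log2 change with genotype was -0.43 for Tmem147, 0.36 for Ubxn4 and 0.21 for Mbtps2, the protease that makes the second cut in SREBP2 (limma adjusted p = 0.2562 to 0.2628). With rapamycin it was 0.18 for Mbtps1, the protease of the first cut, and -0.10 for Rnf139, a ubiquitin ligase of the endoplasmic reticulum (limma adjusted p = 0.5943 to 0.7395). Beside these, the averaged change of Insig1 with rapamycin was the largest in size of the 12.

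Of 10 tested uptake and trafficking genes none passed. The log2 change with genotype was -0.47 for Stard3, an endosomal sterol carrier (limma adjusted p = 0.1259), 0.13 for Osbpl2 and -0.18 for Scarb1, the HDL receptor. The change with rapamycin was -0.16 for Scarb1, 0.08 for Osbpl2 and -0.11 for the sterol carrier Osbp. Osbp passed with the covariate (-0.22, limma adjusted p = 0.01445), in the fit that called 332 of all genes in place of 17.

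Of 12 sterol export and LXR target genes none passed. Apoe, the apolipoprotein that carries cholesterol out of cells, came nearest with a log2 change of 0.57 for genotype (limma adjusted p = 0.05029). Its mean was 6355 ± 1342 in control vehicle and 10400 ± 1622 in knockout vehicle hearts (SD, n = 5 each). The change with genotype was 0.17 for Nceh1, a cholesteryl ester hydrolase, and -0.29 for the LXR gene Nr1h3. With rapamycin it was 0.14 for the other LXR gene Nr1h2, -0.22 for the sterol hydroxylase Cyp27a1 and 0.17 for Soat1, which esterifies cholesterol. With the covariate, Nr1h3 passed for rapamycin (0.23, limma adjusted p = 0.04289), in the fit that called 332 of all genes in place of 17.

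In the isoprenoid branch, which leaves the pathway before squalene, none of 12 genes passed. Pdss1, which builds the side chain of coenzyme Q, had a log2 change of -0.49 with rapamycin (limma adjusted p = 0.1083). Pdss1 passed with the covariate (-0.40, limma adjusted p = 0.01165), in the fit that called 332 of all genes in place of 17. Its partner Pdss2 had -0.13 and the methyltransferase Icmt had 0.12. With genotype, the prenyltransferase genes Pggt1b and Rabggta had 0.48 and -0.21, and Nus1, needed for dolichol synthesis, had 0.21.

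Variation between libraries of the same group gave a further view of the set. Deviations of log2 values from group means were correlated between Srebf2 and each of the 6 other genes over 20 libraries, with permutation p-values adjusted over the 6. Srebf2 and Insig1 deviated in opposite directions, with Pearson r = -0.729 (two-sided permutation p = 0.00041, adjusted p = 0.00246) and Spearman rho = -0.657 (permutation p = 0.00223, adjusted p = 0.0134). Without the 2 libraries farthest from the median of Srebf2 (knockout vehicle 3 and control vehicle 3), r was -0.648. Each pool held 5 libraries, too few for a value within pools, and with pool removed beside group r was -0.739 (permutation adjusted p = 0.0012). The permutations made no allowance for the means already removed, so the permutation p-values here are too small. This weighs most with pool removed, so its lower p is not stronger evidence. Without control vehicle 1 and 3, r was -0.677 (permutation adjusted p = 0.0096) and rho -0.538 (permutation adjusted p = 0.0684).

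The enzymes varied with Srebf2 less closely. Sqle had r = 0.495 and rho = 0.385 (permutation p = 0.0282 and 0.0948, adjusted p = 0.0847 and 0.19), with r = 0.391 without the same 2 libraries. Idi1 had r = 0.437 and rho = 0.469 (permutation p = 0.0538 and 0.0394, adjusted p = 0.108 and 0.118), with r = 0.499 without them. Neither passed after adjustment. Cyp51 (r = 0.38), Lss (0.244) and Mvd (0.0424) had adjusted permutation p-values of 0.148, 0.358 and 0.855. Without the same 2 libraries their r was 0.144, 0.225 and 0.108. Among all 21 pairs of the 7 genes, the strongest positive r was between Sqle and Cyp51 (0.554), as a description over the same 20 libraries.

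**Figure D5:**
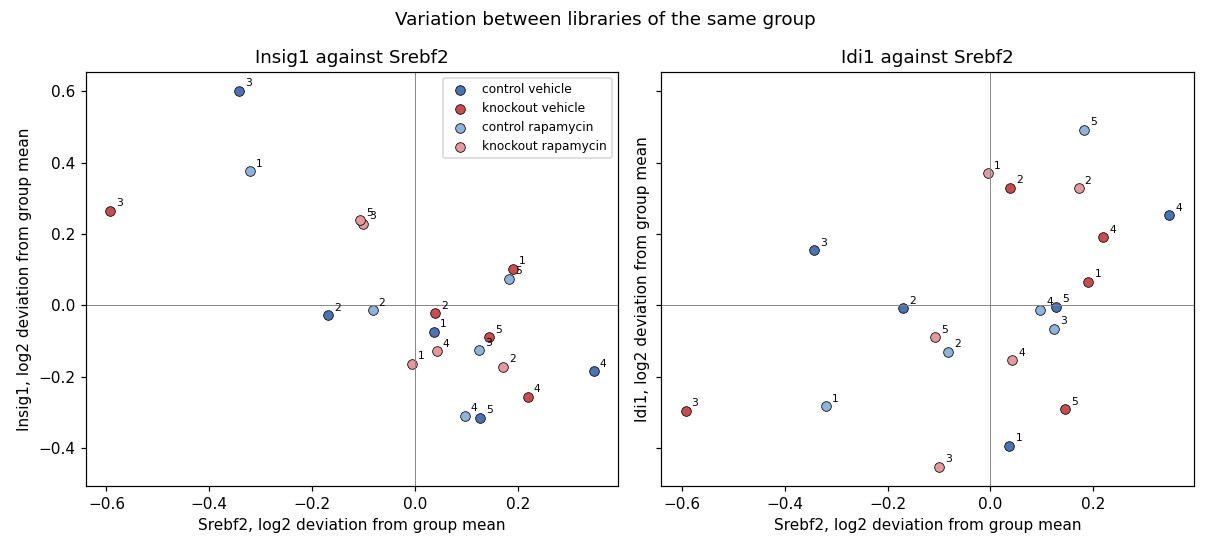
Deviation of log2(value + 1) from the group mean for Insig1 (left) and Idi1 (right) against Srebf2 in 20 libraries, with group by colour and replicate numbers. Insig1 runs opposite to Srebf2 (r = -0.729), and knockout vehicle 3 and control vehicle 3 lie farthest to the left.

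The genes whose deviations were most like the mean of the 7 standardized genes were sought among 10333 other genes with a mean of at least 100. These were Ints2 (r = 0.841), Cstf3 (0.802), Prrx1 (0.802), Ret (0.797), B3galt2 (0.796), Asph (0.78), Vcan (0.776) and Slc38a2 (0.776), over 20 libraries and as a description. The 7 genes themselves, and pathway enzymes with a mean under 100, could not enter this search. None of these 8 is among the pathway enzymes that could.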

How the data were processed

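Poly(A) RNA of 20 ventricle libraries was analysed. Per the submitters' processing notes, the authors used build mm9, Picard 1.64, SAMtools and RSEM, with no aligner named in the labels. The deposited signal per gene is an RSEM estimate that the authors scaled to a common upper quartile, as its values show, not a count. The commonest value above 0 in a library was taken as 1 read and gave the implied depth. On that scale 87.8% to 89.4% of low values were whole reads within 0.05. Counting errors cover counting only.

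Values were analysed as log2(value + 1), a scale that understates changes of low genes. Genes with a value of at least 10 in at least 5 libraries (13548 genes) entered 1 limma 3.58.1 fit in R 4.3.3 over all 20 libraries, with 4 group means, a variance trend and Benjamini-Hochberg adjustment at 0.05, and p-values measure the spread between libraries. The fit was tested on simulated data. Correlations used 100000 permutations of the deviations over all libraries. No allowance was made for the group or pool means already removed, so their p-values are too small. Alternatives were pseudocounts, filters, quantile and median-ratio scaling, pool, a replicate block, the groups compared alone, and leaving out libraries; the long-minus-short covariate and the pool term in correlations were added after seeing the data. The score is the mean log2 deviation of long genes (4808 bases or more) minus that of short genes (2061 or fewer), by longest coding transcript in GENCODE.

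Named genes were all members in each comparison, list genes that passed, up to 3 other genes per sterol list with the smallest p in the averaged comparisons, the 8 most alike, and Acsl1. A few list genes are left out of the text and figures. The members and lists were chosen with earlier results of these data known. Hmgcs1 was not analysed here.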

Additional observations from a re-analysis of the deposited data

Results flagged for a closer look

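Within a group of 5 libraries, a value was singled out when its gap to the nearest other value exceeded 0.71 of the range of the group. This held for 5 of the 28 combinations of 7 genes and 4 groups, and chance gives about 1 in 20.

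Srebf2 was 602.4 in knockout vehicle 3, where the other 4 libraries lay between 934 and 1059. Insig1 was 1327 in control vehicle 3, where the others lay between 702 and 857, and that library is 1 of the 2 that stood apart on the first principal component. Idi1 was 259.8 in control rapamycin 5, where the others lay between 151 and 183. Sqle was 20.62 in knockout rapamycin 4, above which the others lay between 32.6 and 35.9. Cyp51 was 486.7 in knockout vehicle 2, where the others lay between 423 and 441. The 5 values came from 5 different libraries.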

How the results depend on the processing

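Values counted as kept had the same direction and side of the threshold, the same count of calls or, for medians, a shift under 1 within-group SD (0.134). Of 900 values from leaving out 1 library, 870 were kept, as were 649 of 670 from the other alternatives. None of the 7 genes was called in the main fit, so a kept fitted change was again one that did not pass. The values also share genes and libraries, and these counts do not measure how firm a difference is. Leaving out 1 library gave 0 to 3 calls among the 7 genes for knockout under vehicle, and medians of 0.16 to 0.39 there (highest without knockout vehicle 3) and of -0.35 to -0.12 for rapamycin in knockouts (nearest 0 without knockout rapamycin 4). The long-minus-short covariate gave 1 call, Cyp51, for rapamycin in knockouts and 1 for rapamycin averaged over genotypes, beside 227 and 332 calls among all genes. In the second, quantile normalization also gave 1. With a mean of at least 100, which drops Sqle and Lss, the medians were -0.11 for rapamycin in controls, -0.40 for rapamycin in knockouts and -0.11 for the interaction, and quantile normalization gave -0.17 for the interaction. The cause of the other shifts was not tested. Srebf2 with Idi1 had r = 0.558 without control vehicle 1 and 3 (permutation adjusted p = 0.0444).

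Small values changed sign. Mvd with rapamycin in controls was 0.14 without control vehicle 1 and 3 and 0.042 with the covariate. Averaged over genotypes it was 0.12, 0.065 and, with a pool term, 0.040. Without control vehicle 1 and 3 the interaction was -0.13 for Insig1 and -0.039 for Mvd, and -0.073 for Insig1 with the covariate. The genotype average was -0.0065 for Cyp51 after quantile normalization and 0.013 for Idi1 with a pool term. Leaving out 1 library gave -0.24 to 0.011 for Mvd with rapamycin in controls, -0.056 to 0.15 for Srebf2 and -0.068 to 0.24 for Lss with rapamycin in knockouts, -0.10 to 0.14 for Insig1 in the interaction, -0.058 to 0.053 for Idi1 in the genotype average, and -0.069 to 0.058 for Mvd in the rapamycin average.

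The main fit did not treat replicate numbers as pairs. Correlations of same-numbered libraries ran from -0.515 to 0.427. Libraries of different numbers were not set beside them, so this range cannot decide whether samples were paired. The replicate block gave 0 calls among the 7 genes in each comparison, with 49 genes called in place of 33 for knockout under vehicle and 5 in place of 17 for rapamycin averaged over genotypes. At the implied depth, Sqle and Lss rest on few reads, which limits the precision of their changes.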
